A study of Mus musculus with 4 samples.

Results

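The genes described here are the mouse genes whose symbol is Ccdc followed by a number and at most 1 letter, an official name for genes that encode a protein with a coiled-coil domain and were given no other name. The deposited gene table holds 136 of them among 55335 genes, after Ccdc103, Ccdc114 and Ccdc151 had been set aside. They were taken by name, but the family itself was selected on the log2 changes and marks of this same comparison, which were already known. Their differences between the groups are therefore given as a description. Counts of members called by a fit over all genes describe that fit and are no independent test of the family. RNA was measured in 4 poly(A) libraries from mouse testis at postnatal day 14, and the series text speaks of germ cells. The groups were Znhit1_KO, a knockout of the gene for the chromatin remodelling subunit ZNHIT1 (2 libraries), and CTRL (2 libraries). The strain, the alleles, any Cre driver and the genotype of the controls are not stated in the labels or files used here. The labels call the 2 libraries of a group independent biological replicates and do not say how many animals each came from.

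A coiled coil is a rod of wound helices that lets proteins pair, measure distances and hold assemblies together. Proteins of this kind are common in centrioles and in the axoneme, the microtubule core of cilia and of the sperm tail, so many Ccdc genes are known from sperm and motile cilia. Others act in splicing, at ribosomes, in mitochondria or in membrane traffic in most cells. In the testis, transcripts for the sperm tail and acrosome begin to accumulate in pachytene spermatocytes, long before a tail is built.

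Levels are given in CPM, the estimated counts of a gene scaled to a common library total, and a pair of values is for replicates 1 and 2 in that order. The deposited estimated counts summed to between 129531714 and 157790457 per library. Znhit1 itself stood at 17.3 and 31.9 CPM in CTRL and at 3.15 and 2.14 CPM in Znhit1_KO, with a log2 change of -3.22 (SE 0.403, edgeR adjusted p = 0.264). In the authors' deposited table its log2 change is -3.23, with an adjusted p of 1.14e-14. Somatic and germ cell markers were both present in all libraries: the summed level of 14 Sertoli cell markers was 6377 to 9049 CPM and that of 12 spermatogonium markers 1017 to 1036 CPM. Of the late spermatid genes, Tnp1, Prm1 and Prm2 stood at 0.156 CPM or less in each library. The 13 pachytene markers summed to 1557 and 3159 CPM in CTRL and to 816 and 1217 CPM in Znhit1_KO. The 12 that were tested were each lower in both Znhit1_KO libraries, against 21.3% of all tested genes. Because the samples are bulk tissue, fewer cells of a type and less RNA per cell cannot be told apart, and the part of cell makeup in the differences below was not tested.

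Most Ccdc genes had negative log2 changes, that is lower values in Znhit1_KO. Among the 12 lowest of at least 1 CPM on average without overlap were genes of the sperm tail and genes with no assigned role. Of the 136 genes, 131 passed the filter on low counts; Ccdc70, Ccdc121, Ccdc153, Ccdc182 and Ccdc185 did not. The tested members had a median log2 change (Znhit1_KO minus CTRL) of -0.33, against 0.030 over all tested genes, and 91 of the 131 were negative and 40 positive, against 46.9% and 53.1% of all tested genes. The groups did not overlap for 65 members that were lower in Znhit1_KO and 21 that were higher, against 21.3% and 21.8% of all tested genes. A change of at least 1 on the log2 scale was negative for 32 members and positive for 3, against 8.88% and 4.79% of all tested genes. At the other end, 66 members lay within 0.5 of 0.

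In the quasi-likelihood test of edgeR, 0 of 131 members and 0% of all 24116 tested genes passed an adjusted p of 0.05. At an unadjusted p under 0.05 there were 47 lower and 3 higher members, with 7.75% and 2.99% of all tested genes on those sides. DESeq2 called 31 lower and 3 higher of 132 members with a value, with 3.61% and 0.399% of genes, while limma-voom called 0 members and 0% of genes. The authors' deposited table marks 28 of its 132 Ccdc genes lower and 2 higher, with 3.22% and 0.277% of all its rows marked on those sides. Without CTRL replicate 1, edgeR called 28 members lower and 1 higher, among 754 of 25545 genes called in all, and without any 1 of the other libraries it called 0.

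**Figure D1:**
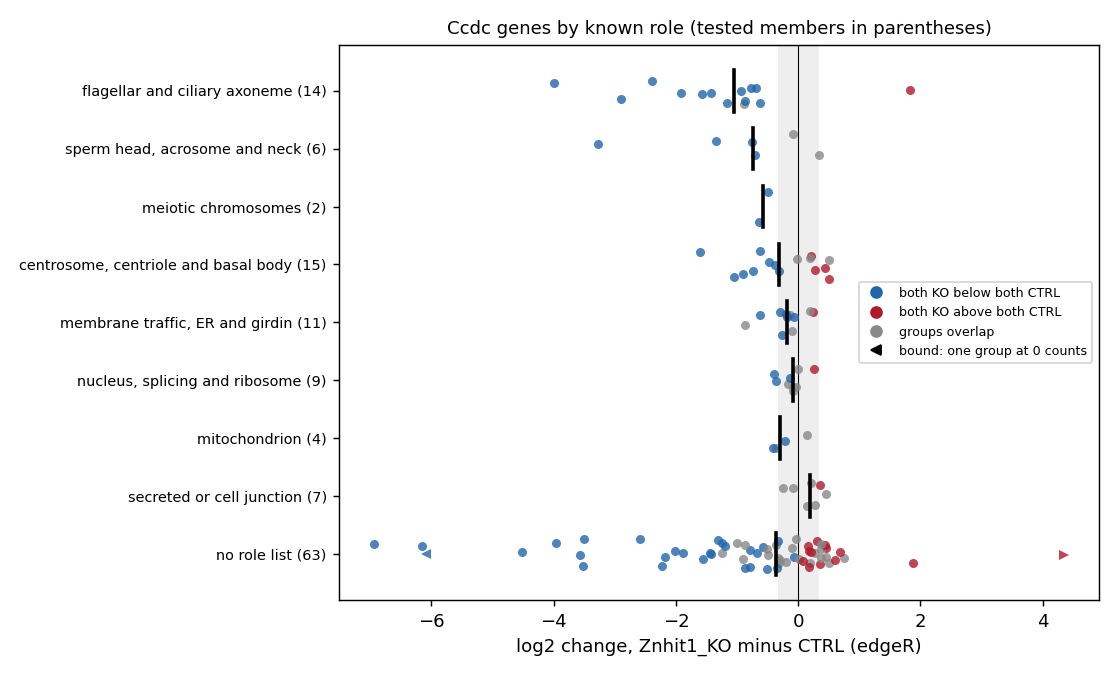
Log2 change of each tested Ccdc gene (x axis, Znhit1_KO minus CTRL) by known role (y axis), where black bars are list medians, the grey band is the middle 50% of all tested genes, from -0.31 to 0.33, and triangles are bounds for genes at 0 counts in 1 group. Ccdc7a and Ccdc7b, at the far left of the last row, rest on 4 and 3 counts in Znhit1_KO. The axoneme list has its median at -1.05, and all but 1 of its 14 tested members lie left of 0, whereas the nuclear list lies close to 0.

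Genes of the flagellar and ciliary axoneme were the role list with the lowest median, -1.05 over 14 tested members. Of these, 13 were negative, 12 were lower in both Znhit1_KO libraries and 1, Ccdc63, was higher in both. Over all tested genes, 46.9% were negative, 21.3% lower in both and 21.8% higher in both. Ccdc38 (mm10 chr10:93540632-93584327, GENCODE gene span) encodes a testis protein of the sperm flagellum that binds the protein of Ccdc42. It stood at 14.4 and 38.4 CPM in CTRL and at 1.25 and 2.07 CPM in Znhit1_KO. Its highest Znhit1_KO library was far below its lowest CTRL library, and the log2 change was -3.99 (SE 0.582). Ccdc113 (chr8:95534085-95558890), which forms an axonemal complex with Ccdc96, stood at 12 and 33.0 CPM in CTRL and at 2.36 and 3.68 CPM in Znhit1_KO, with a log2 change of -2.90 (SE 0.555). For the partner gene Ccdc96 the CTRL values were 25.3 and 34.2 CPM and the Znhit1_KO values 17.5 and 19.5 CPM, a smaller log2 change of -0.69 (SE 0.219). Neither gene overlapped between groups, and whether their log2 changes differ from each other was not tested.

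Ccdc146, a microtubule protein needed for the sperm tail, stood at 9.09 and 13.4 CPM in CTRL and at 2.22 and 2.10 CPM in Znhit1_KO (log2 change -2.39, SE 0.300). Ccdc65 encodes a subunit of the nexin-dynein regulatory complex, which links neighbouring doublets. It stood at 18.8 and 44.5 CPM in CTRL and at 4.97 and 11.9 CPM in Znhit1_KO (log2 change -1.91, SE 0.580). Ccdc39 and Ccdc40 encode the paired ruler proteins that set the spacing of dyneins and spokes along the doublet. Ccdc40 stood at 23.0 and 33.4 CPM in CTRL and at 11.1 and 7.78 CPM in Znhit1_KO, a log2 change of -1.58 (SE 0.295). Ccdc39 was at 71.0 and 85.7 CPM in CTRL and at 47.0 and 54.8 CPM in Znhit1_KO, a log2 change of -0.62 (SE 0.178). Of its 7443 exonic bases, Ccdc39 shares 1256 with the opposite strand gene Ttc14, whereas Ccdc40 shares none. Ttc14 was at 63.9 to 88.5 CPM with a log2 change of 0.09 (SE 0.215), and its part in the Ccdc39 value was not tested. Both ruler genes were lower in both Znhit1_KO libraries, and whether their changes differ from each other was not tested.

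The microtubule-binding gene Ccdc181 was at 59.6 and 92.6 CPM in CTRL and 27.4 and 29.4 CPM in Znhit1_KO, with a log2 change of -1.42 (SE 0.248). Ccdc173, Ccdc189, Ccdc34 and Ccdc172, which are flagellar or doublet proteins, had log2 changes of -1.17, -0.94, -0.87 and -0.77, and none of them overlapped between groups. The tektin-like gene Ccdc105 overlapped (2.02 and 5.90 CPM in CTRL, 1.59 and 2.71 CPM in Znhit1_KO). Without CTRL replicate 2 the value was -1.15 for Ccdc65, -0.67 for Ccdc173, -0.49 for Ccdc34 and -0.45 for Ccdc96, and Ccdc105 went from -0.88 to 0.090. The opposite strand gene Phkg2, which shares exonic bases with Ccdc189, had a log2 change of -0.98 (SE 0.404), so the Ccdc189 value cannot be told apart from that of its neighbour.

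Ccdc63 (chr5:122108040-122140823), a relative of the outer dynein arm docking genes that is needed for sperm tails, ran the other way. It stood at 1.93 and 1.90 CPM in CTRL and at 5.73 and 7.84 CPM in Znhit1_KO. The 2 CTRL libraries were nearly equal and both Znhit1_KO libraries were well above them, with a log2 change of 1.83 (SE 0.296). The authors' deposited table gives TPM values of 2.86 and 2.05 in CTRL and of 7.04 and 9.91 in Znhit1_KO and marks the gene higher. Each row marked there has an adjusted p under 0.05 and a log2 change of at least 1 in size, but not every row that meets both is marked. Under the alternatives its log2 change ranged from 1.5 to 2.00. Its exons overlap Myl2 on the opposite strand, which was at 0.0576 CPM or less in every library.

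**Figure D2:**
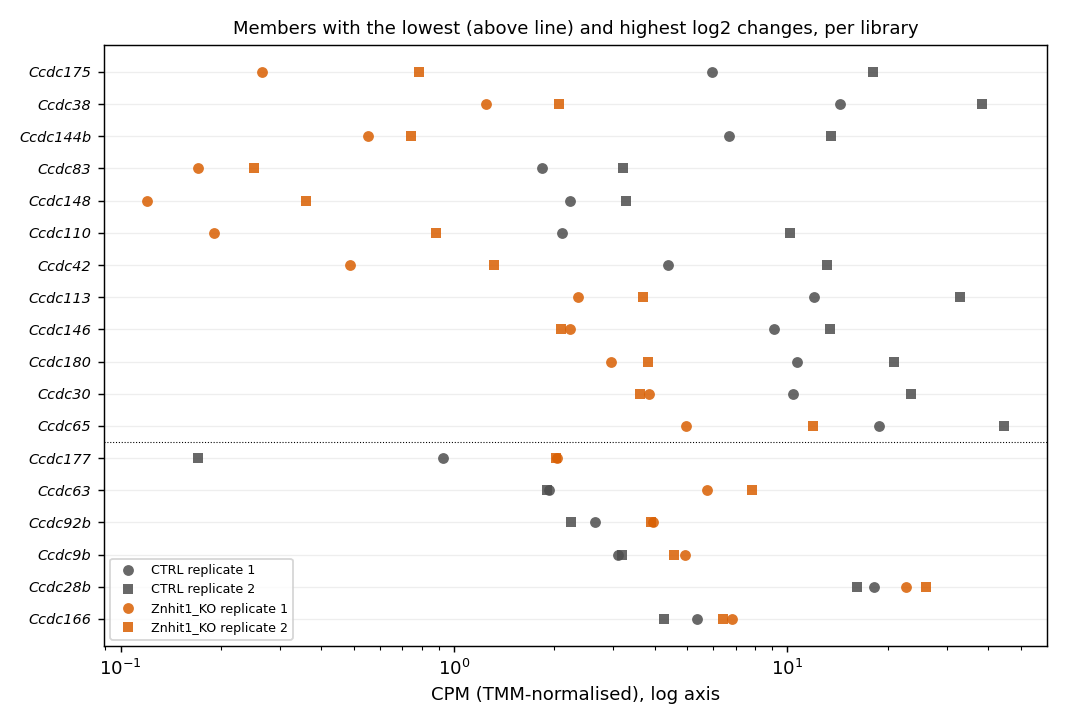
CPM on a log axis (x) in each of the 4 libraries for the 12 members with the lowest and the 6 with the highest log2 changes among those of at least 1 CPM on average without overlap between groups (y). In the upper 12 the CTRL points lie to the right of the Znhit1_KO points, and CTRL replicate 2 (grey squares) is the rightmost point in each, as for Ccdc38 at 38.4 CPM.

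Among 6 genes of the sperm head, acrosome and neck, the median log2 change was -0.73, with 5 negative and 4 lower in both Znhit1_KO libraries. Over all tested genes, 46.9% were negative and 21.3% were lower in both. Ccdc42 (chr11:68587021-68597966), needed to couple the sperm head to the tail, stood at 4.39 and 13.1 CPM in CTRL and at 0.487 and 1.32 CPM in Znhit1_KO (log2 change -3.28, SE 0.741). Ccdc136, an acrosomal protein gene, was at 157.0 and 320.9 CPM in CTRL and at 78.8 and 110.2 CPM in Znhit1_KO (log2 change -1.34, SE 0.377). Without CTRL replicate 2 the Ccdc136 value was -0.73, that of Ccdc42 -2.28 and that of Ccdc87, described next, -0.39. Ccdc62 (-0.75, SE 0.210) and Ccdc87 (-0.70, SE 0.276), both linked to acrosome formation, were also lower without overlap. Ccdc157, a Golgi-linked gene of the same list, lay within 61.7 to 70.4 CPM in all libraries with groups that overlapped, and Ccdc188 was at 0.126 CPM or less.

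The meiotic chromosome members were lower by smaller amounts. Ccdc36 encodes IHO1, which promotes DNA double-strand breaks on unsynapsed axes, and stood at 39.9 and 36.9 CPM in CTRL and 28.8 and 26.0 CPM in Znhit1_KO (log2 change -0.49, SE 0.168). Ccdc155 encodes KASH5, which ties telomeres to dynein across the nuclear envelope, and stood at 71.5 and 112.8 CPM in CTRL and 51.1 and 66.8 CPM in Znhit1_KO (log2 change -0.64, SE 0.272, or -0.28 without CTRL replicate 2). These genes act at the start of meiotic prophase, and in neither did the groups overlap.

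Centrosome, centriole and basal body genes had a median of -0.32. Of 15 tested, 8 were lower and 4 higher in both Znhit1_KO libraries, where 21.3% and 21.8% of all tested genes were. Ccdc13, a centriolar satellite protein, stood at 19.6 and 44.1 CPM in CTRL and 7.25 and 13.7 CPM in Znhit1_KO (log2 change -1.61, SE 0.493). Without CTRL replicate 2 the value was -0.90 for Ccdc13, -0.34 for Ccdc77 and -0.23 for Ccdc92, whose main value was -0.73; Ccdc92 was at -1.11 without CTRL replicate 1. Ccdc66, a microtubule and centrosome protein, was at 38.5 and 51.2 CPM in CTRL and 20.8 and 22.7 CPM in Znhit1_KO (log2 change -1.05, SE 0.207). Ccdc92, a centriole-interface protein and the most abundant Ccdc gene per transcript length, had a mean of 205.9 TPM in CTRL and 127.0 TPM in Znhit1_KO in the authors' deposited table. Ccdc77, a centrosome protein gene, was at 35.4 and 50.4 CPM in CTRL and 25.5 and 30.3 CPM in Znhit1_KO. Ccdc78, of the deuterosome that amplifies centrioles in multiciliated cells, was low throughout (1.14 and 0.911 CPM in CTRL, 0.538 and 0.555 CPM in Znhit1_KO). On the higher side were Ccdc61, a basal body gene, at 56.5 and 62.5 CPM in CTRL and 70.6 and 90.8 CPM in Znhit1_KO (log2 change 0.44, SE 0.185), and the Bardet-Biedl modifier Ccdc28b at 18.2 and 16.2 CPM in CTRL and 22.6 and 26.0 CPM in Znhit1_KO (0.50, SE 0.192). Ccdc120 and Ccdc18 were the other 2, with log2 changes of 0.28 and 0.21. Scaled to the Sertoli cell markers, the median of all genes itself moved from 0.030 to -0.32 and the centrosome list to -0.66.

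Lists of more general cell functions had medians closer to 0 than the axoneme list. The 11 membrane traffic genes had a median of -0.18, with 9 negative and, without overlap, 6 lower and 1 higher. For this list and those that follow, 46.9% of all tested genes were negative and, without overlap, 21.3% were lower and 21.8% higher. The 9 genes of splicing, nucleus and ribosome had a median of -0.090, with 3 lower and 1 higher, and the 4 mitochondrial genes -0.29, with 2 lower. The mitochondrial median was thus near the -0.33 of all members. Ccdc115, an assembly factor of the proton pump, was lower without overlap (56.8 and 80.9 CPM in CTRL, 40.6 and 49.2 CPM in Znhit1_KO; log2 change -0.62, SE 0.228, or -0.34 without CTRL replicate 2). Girdin, encoded by Ccdc88a, and its relative Ccdc88c had a log2 change of -0.30 (SE 0.144) and -0.20 (SE 0.136). The third girdin relative, Ccdc88b, overlapped between groups (2.93 and 7.41 CPM in CTRL, 2.47 and 3.18 CPM in Znhit1_KO). Ccdc22 and Ccdc93 encode partners in a complex that recycles receptors from endosomes, with log2 changes of -0.090 (SE 0.235) and -0.26 (SE 0.169), and the groups overlapped for Ccdc22. Ccdc186, a gene of dense-core vesicle formation, overlapped too (99.7 and 85.3 CPM in CTRL, 98.4 and 70.5 CPM in Znhit1_KO). Ccdc47, a chaperone of membrane protein insertion, had a log2 change of -0.18 (SE 0.151), and the splicing factor gene Ccdc12 stood between 14.4 and 18.1 CPM in all 4 libraries. The mitochondrial Ccdc90b had a log2 change of -0.41 (SE 0.153). It shares exonic bases with the opposite strand gene Ankrd42, at -1.0 (SE 0.278), so the 2 values cannot be told apart. Among nuclear genes, the splicing-linked Ccdc97 was at 72.8 and 77.0 CPM in CTRL and 72.8 and 64.5 CPM in Znhit1_KO. Ccdc174 (28.5 and 34.1 CPM, then 21.5 and 26.3 CPM) and Ccdc130 (18.5 and 23.0 CPM, then 16.1 and 16.1 CPM) had the lowest values of that list, -0.39 and -0.37. Ccdc84 had the highest, 0.27 (SE 0.196). For 7 genes of secreted or junctional proteins the median was 0.20, but it was -0.12 under Sertoli cell scaling and -0.020 without CTRL replicate 1. In that list Ccdc80, a matrix protein, overlapped between groups, and Ccdc85b had a log2 change of 0.36 (SE 0.199).

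The other 67 members have no assigned role here, and 63 of them were tested. Their median was -0.36, with 28 lower and 13 higher in both Znhit1_KO libraries, against 21.3% and 21.8% of all tested genes. The authors' deposited table marks 17 of these members lower and 1 higher, against 3.22% and 0.277% of all its rows. Ccdc175 (chr12:72101300-72185029) stood at 5.95 and 18.1 CPM in CTRL and at 0.266 and 0.785 CPM in Znhit1_KO, the lowest log2 change among members of at least 1 CPM on average (-4.52, SE 0.803). Ccdc144b stood at 6.67 and 13.5 CPM in CTRL and at 0.551 and 0.742 CPM in Znhit1_KO (-3.96, SE 0.465). In both genes the lowest CTRL library was several times the highest Znhit1_KO library.

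Ccdc83 (1.83 and 3.21 CPM in CTRL, 0.171 and 0.252 CPM in Znhit1_KO) and Ccdc148 (2.23 and 3.29 CPM, 0.120 and 0.360 CPM) had a log2 change of -3.57 (SE 0.498) and -3.52 (SE 0.639). Among the 12 lowest members of at least 1 CPM on average without overlap, Ccdc110 had, as a ratio, the widest CTRL pair. It stood at 2.11 and 10.2 CPM in CTRL, against 0.190 and 0.886 CPM in Znhit1_KO. Its log2 change was -3.51 (SE 1.05), or -1.97 without CTRL replicate 2, and the authors' deposited table does not mark it. Ccdc180 (10.7 and 20.9 CPM in CTRL, 2.96 and 3.81 CPM in Znhit1_KO) and Ccdc30 (10.4 and 23.4 CPM, 3.85 and 3.62 CPM) had a log2 change of -2.22 (SE 0.393) and -2.17 (SE 0.428). Ccdc73 had replicates that were nearly equal within each group, 38.0 and 37.5 CPM in CTRL and 15.4 and 15.1 CPM in Znhit1_KO, a log2 change of -1.31 (SE 0.166).

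Further members without a role that the authors' deposited table marks lower were Ccdc154 (0.837 and 2.52 CPM in CTRL, 0.215 and 0.346 CPM in Znhit1_KO), Ccdc89 (9.20 and 18.1 CPM, 3.28 and 6.02 CPM), Ccdc150 (10.8 and 14.3 CPM, 4.23 and 5.12 CPM), Ccdc152 (12.9 and 16.5 CPM, 5.49 and 6.91 CPM) and Ccdc24 (6.44 and 12 CPM, 3.55 and 4.56 CPM). All were lower in both Znhit1_KO libraries. Without CTRL replicate 2, Ccdc154 went from -2.58 to -1.57, Ccdc89 from -1.55 to -0.98 and Ccdc24 from -1.19 to -0.67. The members of this set with the highest CPM, which is not scaled to length, had smaller log2 changes: Ccdc6, a gene known from fusions in thyroid tumours, at 0.18 (SE 0.154; negative when scaled to the Sertoli cell markers), Ccdc117 at -0.36 (SE 0.244), Ccdc25 at -0.060 (SE 0.143) and Ccdc158 at -0.57 (SE 0.190, or -0.37 without CTRL replicate 2).

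A few members were at or close to 0 in 1 group, where a fitted change depends on the prior count and is not given. Ccdc178 had estimated counts of 12 and 168 in CTRL and 0 in both Znhit1_KO libraries. The neighbouring copies Ccdc7a and Ccdc7b had counts of 62 and 198, and of 62 and 283, in CTRL, and of 4 and 0, and of 3 and 0, in Znhit1_KO. Their transcripts share 13.9% of the 31-base words of Ccdc7b, so how the authors' counting split reads between the copies is uncertain. In the other direction Ccdc54 had 0 in both CTRL libraries and counts of 27 and 42 in Znhit1_KO, and the authors' deposited table lists it at a log2 value of 7.40 (adjusted p = 0.00963) but with no mark. Ccdc182 had 0 in both CTRL libraries and counts of 10 and 55 in Znhit1_KO, and the authors' deposited table marks it higher, with an adjusted p of 0.0218. The highest changes among members of at least 1 CPM were those of Ccdc177 (0.926 and 0.171 CPM in CTRL, 2.04 and 2.02 CPM in Znhit1_KO; 1.88, SE 0.787), Ccdc63, Ccdc92b (0.68, SE 0.282), Ccdc9b (0.60, SE 0.260), Ccdc28b and Ccdc166 (0.46, SE 0.256). The Ccdc177 value was 1.13 when CTRL replicate 2 was left out and 3.55 when CTRL replicate 1 was, and an overlapping opposite strand gene, Gm26796, changed by 3.18 (SE 0.624).

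**Figure D3:**
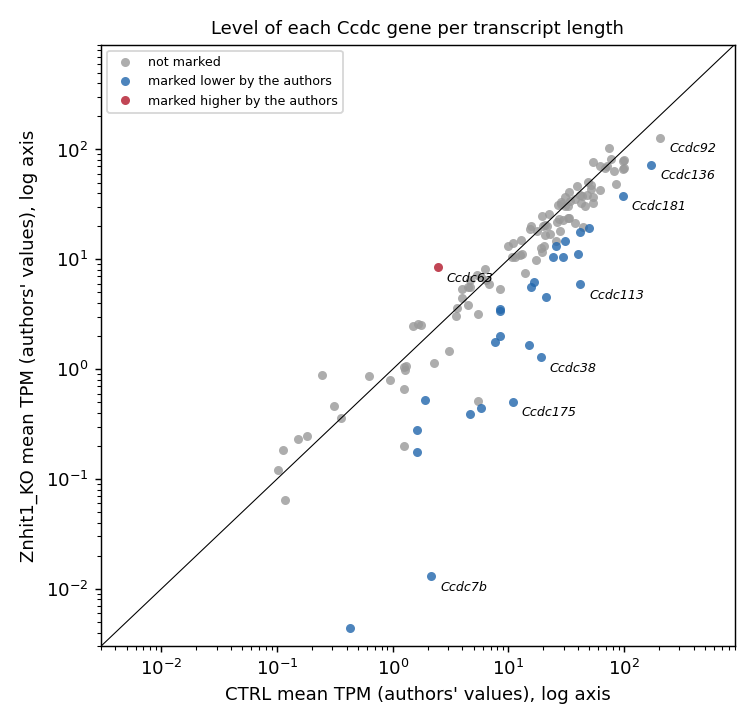
Mean TPM from the authors' deposited table in CTRL (x, log axis) and Znhit1_KO (y, log axis) for the 129 members above 0 in both groups, with equality as the diagonal. Blue points, marked lower by the authors, spread over the range of levels, from Ccdc7a at 0.428 TPM to Ccdc136 at 172.1 TPM in CTRL, and Ccdc63 is the red point above the line.

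Levels per transcript length, as mean TPM in CTRL from the authors' deposited table, had a median of 17.5 over the 132 members listed there. The members marked lower had a median of 15.4 TPM in CTRL and 3.46 TPM in Znhit1_KO, and those not marked 19.5 and 16.8 TPM. In CTRL, 20 members reached 50 TPM, among them Ccdc92, Ccdc136, Ccdc155, Ccdc117 (100.1 TPM), Ccdc115 (98.3 TPM) and Ccdc88c (98.2 TPM). Of these 20, 2 were marked lower, Ccdc136 and Ccdc181, against 3.22% of all rows of that table. The median log2 change of the 20 was -0.39. At the other end 14 members were under 1 TPM in CTRL.

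The members marked lower also differed between the replicates of a group. Of the 28 members marked lower in the authors' deposited table, 26 were higher in CTRL replicate 2 than in CTRL replicate 1, with a median ratio of 2.0. For the 102 tested members not marked, 63 were higher in CTRL replicate 2, with a median ratio of 1.08. Within Znhit1_KO, replicate 2 was higher for 20 of the 28, and the median ratio was 1.29 over the 27 members above 0 in replicate 1. On the log2 scale, and relative to each gene's own mean, the axoneme list averaged 0.27 and 1.00 in CTRL and -0.78 and -0.48 in Znhit1_KO. Pachytene markers followed the same order of libraries, at 0.33, 1.51, -1.37 and -0.48, while the mean of the spermatogonium markers stayed between -0.03 and 0.04. That order was not particular to these lists. All members together had it (0.17, 0.45, -0.36 and -0.26), as did the sperm head, meiotic chromosome, centrosome and no role lists. The membrane traffic, nuclear, mitochondrial and secreted lists had other orders. Sertoli cell markers averaged -0.18, -0.24, 0.34 and 0.08, and 11 of 14 were higher in both Znhit1_KO libraries. Of the 12 spermatogonium markers, 2 were lower in both and 1 was higher. Stra8 was at -0.67 (SE 0.144) and Dmrt1 at 0.31 (SE 0.137), both without overlap. Over all tested genes, 21.3% were lower in both and 21.8% higher. The 10 round spermatid markers summed to 31.1 and 67.6 CPM in CTRL and to 15.4 and 20.3 CPM in Znhit1_KO. Most of that sum came from Acrbp (-1.68, SE 0.5) and Zpbp2 (-1.91, SE 0.405). Spaca1 had a log2 change of -0.24 (SE 0.269) and Tssk1 of -0.78 (SE 0.422). Tnp1, Tnp2, Prm1, Prm2, Acrv1 and Catsper3 stood at 0.156 CPM or less in each library. The 8 Leydig cell markers summed to 361.0 and 344.2 CPM in CTRL and to 467.4 and 458.3 CPM in Znhit1_KO. Among these, Cyp17a1, a steroid hydroxylase gene, stood at 1.0 and 0.833 CPM in CTRL and at 5.97 and 5.33 CPM in Znhit1_KO (log2 change 2.62, SE 0.303). Cyp11a1, the gene of the first steroid enzyme, stood at 2.96 and 2.55 CPM in CTRL and at 6.71 and 18.7 CPM in Znhit1_KO (2.21, SE 0.523). Both are marked higher in the authors' deposited table, while most of the list's sum came from Nr5a1 and Scarb1. Hsd3b1 (0.38, SE 0.465), Insl3 (0.41, SE 0.58) and Lhcgr (-0.06, SE 0.426) overlapped between groups, and Star was at 0.36 (SE 0.236). The list had a median of 0.39, with 7 of 8 positive and 5 higher in both Znhit1_KO libraries. Over all tested genes those shares were 53.1% and 21.8%. The sums for 8 macrophage markers were 51.0 and 60.8 CPM in CTRL and 58.2 and 83.5 CPM in Znhit1_KO. Mrc1, at 32.1 to 36.2 CPM, was the largest part and had a log2 change of 0.07 (SE 0.162). All 8 were positive, with a median of 0.68, and 4 were higher in both Znhit1_KO libraries, against 53.1% and 21.8% of all tested genes. The part of these cell types in the Ccdc values was not tested. All 10 markers of multiciliated cells and duct epithelium had positive log2 changes, against 53.1% of all tested genes. In both Znhit1_KO libraries 3 of the 10 were higher, against 21.8%. The sum of the 10 ranged from 79.6 to 117.6 CPM, of which Epcam made up 64.6 to 92.7 CPM. The defining genes Gmnc and Mcidas were at 0.209 CPM or less in every library.

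**Figure D4:**
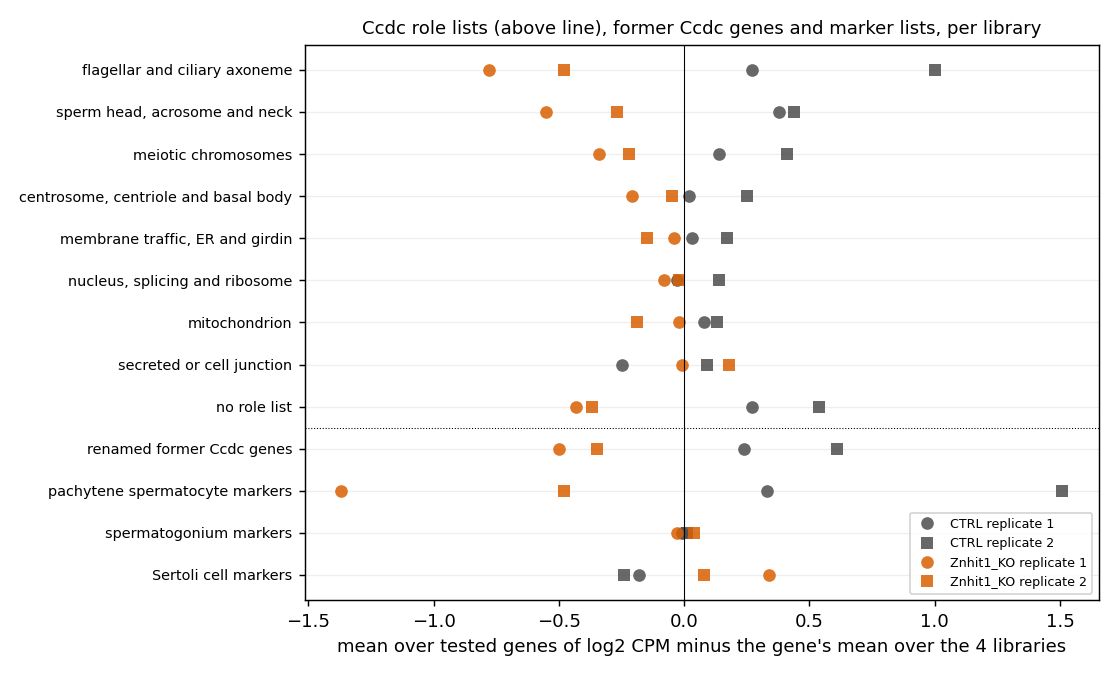
Mean log2 CPM of each Ccdc role list, the renamed former Ccdc genes and marker lists (y), relative to each gene's mean over the 4 libraries (x), with 1 point per library. The axoneme list and the pachytene markers order the libraries alike, from Znhit1_KO replicate 1 on the left to CTRL replicate 2 on the right. The sperm head, meiotic chromosome, centrosome and no role lists and the renamed former Ccdc genes share that order, and spermatogonium markers lie at 0.

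Genes that once carried a Ccdc symbol and now have another name were also read. Of 27 such genes, 25 had negative log2 changes and 21 were lower in both Znhit1_KO libraries, with a median of -0.52. Over all tested genes these shares were 46.9% and 21.3%. The authors' deposited table marks 5 of the 27 lower, against 3.22% of all its rows. Drc1 (-2.30, SE 0.711) and Drc7 (-2.09, SE 0.511) encode partners of Ccdc65 in the nexin-dynein regulatory complex. Cfap53 (-2.75, SE 0.541), Cfap45 (-2.23, SE 0.441) and Cfap58 (-3.73, SE 0.699) are axonemal or flagellar too. Drc1 stood at 7.95 and 22.8 CPM in CTRL and at 1.60 and 4.65 CPM in Znhit1_KO. Cfap65, a gene of the sperm tail, was at 106.2 and 158.7 CPM in CTRL and 59.8 and 76.4 CPM in Znhit1_KO (-0.96, SE 0.250). Deup1, the deuterosome gene, was at 2.06 and 3.91 CPM in CTRL and 0.627 and 1.34 CPM in Znhit1_KO (-1.60, SE 0.541). The only gene of the 27 that was higher in both Znhit1_KO libraries was Mtcl1, a microtubule crosslinker (194.6 and 155.1 CPM in CTRL, 286.8 and 197.2 CPM in Znhit1_KO; 0.47, SE 0.235). The telomere attachment gene Terb1 had a log2 change of -0.99 (SE 0.178), and the general genes Nsrp1, a splicing regulator (-0.040, SE 0.150), and Cep95 (-0.080, SE 0.158) lay near 0. Of the set-aside genes, the outer arm docking gene Ccdc151 had a log2 change of -1.15 (SE 0.461) without overlap, and the dynein assembly gene Ccdc103 (-0.75, SE 0.408) and the docking gene Ccdc114 (0.11, SE 0.260) overlapped between groups.

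Promoters were read because many members were lower in the same libraries and because RFX factors, which bind the X-box, are known regulators of ciliary genes. Windows from 250 bases before to 50 after annotated starts (RefSeq, GRCm38.p6) were found for 110 of the 136 members. The 6-base RFX site GTTGCC, searched on both strands (GGCAAC), was in a window of 10 of 24 members marked lower by the authors (41.7%), 17 of 82 tested members not marked (20.7%) and 14.1% of 27025 genes with a window. The whole X-box, a near-palindrome of that site written out in capitals below for Ccdc175 and Ccdc180 and also searched on both strands, contains the shorter site. It was in 2 members, Ccdc175 and Ccdc180, both marked lower, and in 0.355% of all genes. With up to 2 of its 11 fixed letters different, a search added after the sites had been seen, an X-box was in 10 of 24 members marked lower (41.7%), 14 of 82 not marked (17.1%) and 9.57% of all genes. A MYB site, AACNGCC on either strand (GGCNGTT), was in 3 of 24 marked lower (12.5%), 17 of 82 not marked (20.7%) and 13.6% of all genes. Split instead by whether the member was lower without overlap, the RFX site was in 16 of 54 (29.6%) against 11 of 52 (21.2%) of the other tested members. By that split the MYB site was in 14 of 54 (25.9%) against 6 of 52 (11.5%), so its order turned with the way the members were divided. The windows of all genes were not limited to genes tested here, and they differed in base composition. Their median G and C content was 52.7%, against 56% for members. Their median ratio of observed to expected CG pairs was 0.384, against 0.606 for members marked lower and 0.659 for those not marked. The shares were not adjusted for this. These are matches of letters in a window, given with no test, and say nothing of binding.

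The stretches below run from 70 bases before the start to 16 after it, 5′ to 3′ on the gene's strand. They are printed for the members marked lower whose RFX site or X-box (capitals) lies in that stretch, which leaves out Ccdc181 and Ccdc152 with sites elsewhere in the window. Ccdc38, whose window had no match, is shown for comparison. Starts are those of RefSeq, and that of Ccdc184 lies inside its GENCODE gene span, which begins at chr15:98167158.
Ccdc175 (chr12:72185014-72185099, minus strand): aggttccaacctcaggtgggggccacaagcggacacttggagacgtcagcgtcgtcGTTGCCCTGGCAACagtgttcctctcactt
Ccdc180 (chr4:45890233-45890318, plus strand): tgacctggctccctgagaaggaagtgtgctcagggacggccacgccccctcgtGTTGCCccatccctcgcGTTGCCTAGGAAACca
Ccdc113 (chr8:95534030-95534115, plus strand): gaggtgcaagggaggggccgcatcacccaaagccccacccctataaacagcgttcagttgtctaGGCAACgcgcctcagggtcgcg
Ccdc13 (chr9:121839446-121839531, minus strand): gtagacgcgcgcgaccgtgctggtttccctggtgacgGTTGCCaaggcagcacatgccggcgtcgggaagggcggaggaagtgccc
Ccdc60 (chr5:116288970-116289055, minus strand): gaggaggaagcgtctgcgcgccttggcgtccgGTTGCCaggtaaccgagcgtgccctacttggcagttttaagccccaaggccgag
Ccdc184 (chr15:98167736-98167821, plus strand): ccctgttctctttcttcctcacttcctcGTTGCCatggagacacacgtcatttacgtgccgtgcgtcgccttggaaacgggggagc
Ccdc66 (chr14:27508445-27508530, minus strand): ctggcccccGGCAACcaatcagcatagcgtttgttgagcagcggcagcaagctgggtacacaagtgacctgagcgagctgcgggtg
Ccdc30 (chr4:119415506-119415591, minus strand): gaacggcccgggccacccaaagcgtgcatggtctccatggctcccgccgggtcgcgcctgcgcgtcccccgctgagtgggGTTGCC
Ccdc38 (chr10:93540562-93540647, plus strand): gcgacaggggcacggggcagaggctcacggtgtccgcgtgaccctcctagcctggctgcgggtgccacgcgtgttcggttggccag

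The X-box of Ccdc175 began 14 bases before the start and that of Ccdc180 at the start itself. Both genes were among the 12 lowest members of at least 1 CPM on average without overlap. Ccdc60 stood at 41.4 and 104.6 CPM in CTRL and 18.5 and 35.3 CPM in Znhit1_KO (log2 change -1.44, SE 0.524, or -0.62 without CTRL replicate 2). Ccdc184 stood at 2.28 and 2.28 CPM in CTRL and 0.924 and 0.303 CPM in Znhit1_KO (-1.89, SE 0.593). The Ccdc184 value was -1.34 without Znhit1_KO replicate 2 and -2.94 without Znhit1_KO replicate 1. Ccdc38, with a log2 change of -3.99, had none of these forms.

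Shared exonic bases touch many of these values. Of the 131 tested members, 52 share exonic bases with another gene, and no source used here states whether the libraries keep the strand. The median log2 change was -0.36 for those 52 and -0.33 for the other 79, and 10 and 18 of them were marked lower by the authors. On the strand opposite Ccdc38, Snrpf had a log2 change of -0.090 (SE 0.279). Jkamp, opposite Ccdc175, was at 0.28 (SE 0.187) and Eif3m, opposite Ccdc73, at -0.17 (SE 0.227). These partners did not share the size of the member's difference. Selenop, opposite Ccdc152, was at 0.48 (SE 0.426). Mccc1os, opposite Ccdc144b, was at -1.69 (SE 0.436). Ccdc66 shares 1763 of its 4512 exonic bases with the opposite strand gene Fam208a, for which no value was read.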

How the data were processed

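RNA-seq of 4 mouse testis libraries was used. The submitters' processing notes name StringTie 2.2.1, HISAT2 2.2.1, DESeq2 1.38.3, cutadapt 2.5 and the build mm10; no source used here states the annotation or the counting settings. The deposited gene values are whole numbers but exceed the reads stated, and were treated as estimated counts from the authors' pipeline, so counting precision is overstated. The authors' deposited table adds TPM, mean normalised signal, log2 fold changes with standard errors, Wald scores, p-values and adjusted p-values, and marks of genes as up or down.

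All 55335 genes were fitted with edgeR 4.0.16 (R 4.3.3): TMM factors, filterByExpr by group (24116 genes kept), genotype as the only term, quasi-likelihood F-test, Benjamini-Hochberg adjustment over all genes at 0.05. CPM used the TMM factors. Relative log2 CPM used a prior count of 2. A standard error is the size of the log2 change over the root of its F value. The common coefficient of biological variation came to 0.349. The script was tested on simulated data. DESeq2 1.42.0 and limma 3.58.1 were alternatives, with other scalings, filters, a replicate block and each library left out. Positions and exons came from GENCODE M21 (GRCm38), promoter windows from RefSeq. Members and lists were chosen with earlier results of these data known. Named in full were the 12 lowest and 6 highest members of at least 1 CPM without overlap, in each role list up to 4 of the most abundant and up to 4 of the largest log2 change, and Znhit1. The p-values measure only the spread between these libraries.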

Additional observations from a re-analysis of the deposited data

How the results depend on the processing

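Most summaries kept their direction. Of the alternatives run, 137 values stayed within the spread between replicates or within 1.5 times the main count. The 2 that turned were the secreted or junction median of 0.20, which was -0.12 with Sertoli list scaling and ranged from -0.020 to 0.44 with 1 library left out. With Sertoli list scaling the median was -0.69 for all members, -0.66 for centrosome, -0.91 for meiotic chromosome, -0.53 for membrane traffic, -0.63 for mitochondrial, -0.71 for no role list, -0.46 for nuclear and -1.07 for sperm head genes, with 6 members called lower, 98 genes called in all and 5 members higher without overlap. With 1 library left out, the median ranged from -0.44 to -0.24 for all members, -1.5 to -0.70 for the axoneme, -0.69 to -0.41 for meiotic chromosome, -0.31 to -0.12 for membrane traffic, -0.40 to -0.14 for mitochondrial, -0.20 to -0.080 for nuclear and -0.54 to -0.34 for no role list genes. Over the same fits 0 to 28 members were called lower and 0 to 1 higher, and 27 to 34 were higher without overlap, where fewer libraries make separation easier. Lower without overlap were 73 to 82 members with 1 library left out and 89 with Sertoli list scaling. The shares of all genes without overlap under these settings were not computed, so these counts cannot be set against a background. DESeq2 called 31 lower and 3 higher. The authors' lower marks fell from 28 to 14 members with a log2 change of at least 2 in size.

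Replicate numbers are shared by the groups, but the labels do not say that they mark a pair. Differences between replicates 1 and 2 correlated across genes at 0.421 between the groups. With a replicate block edgeR called 50 members lower and 3 higher, of 2737 genes in all. Of 131 tested members, 87 kept their sign under all alternatives that tested them, 75 negative and 12 positive. The same share over all tested genes was not computed. Sertoli list scaling moved the median of all genes from 0.030 to -0.32, so small positive values turn under it and small negative ones do not. The split of 75 and 12 is in part set by that alternative. With 2 libraries a group, few values and no allele information limit all statements.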
